A study of Homo sapiens with 16 samples.

Results

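The binding of HOXB13-G84E to the genome was set against that of wild-type HOXB13 (WT) in LNCaP cells, using every peak of the HOXB13 ChIP-seq list made with each form. The members are therefore 191796 G84E peaks and 190879 WT peaks, 382675 of the 816313 peaks in the 12 peak lists analysed from the series. A peak was called shared when it overlapped a peak of the other form by at least 1 bp, and alone when it did not. LNCaP is an androgen-sensitive human prostate cancer cell line. Both groups carried a short hairpin RNA against HOXB13 and were infected for 7 days, one with a lentivirus carrying HOXB13-G84E and the other with a lentivirus carrying HOXB13-WT. Other lists served to describe the sites. From LNCaP there was HOXB13 ChIP-seq with a control vector (called control below) and with the hairpin and no added HOXB13 (knockdown). HDAC3 ChIP-seq and ATAC-seq came from control and knockdown LNCaP, and HDAC1 ChIP-seq from control LNCaP. From PC-3, an androgen-independent prostate cancer line, came HOXB13 ChIP-seq with the control vector. PC-3 H3K27ac ChIP-seq came from cells with the control vector and from cells with the hairpin against HOXB13. Each group held 1 library, so there is no spread between cultures to set a difference against, and all intervals are 95% intervals for counting error, or for the spread among the peaks of 1 library. The amount of each HOXB13 form in the cells was not measured in these libraries. With 1 library each, differences in protein level, in the enrichment of the library and in binding cannot be told apart.

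HOXB13 is a homeobox transcription factor that marks the prostate and distal colon lineage and binds AT-rich DNA through its homeodomain. G84E is an inherited variant associated with prostate cancer risk, and it lies in the part of the protein that contacts MEIS cofactors, outside the homeodomain. HDAC3 is the deacetylase found in the NCOR and SMRT corepressor complexes, HDAC1 belongs to other corepressor complexes, ATAC-seq marks open chromatin, and H3K27ac marks active promoters and enhancers.

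The libraries were close in size. The G84E library had 44.2 M total tags, with M for mega, of which 6.91 M lay in its peaks (15.6%), and the WT library had 40.3 M, of which 6.90 M lay in peaks (17.1%). The number of tags in peaks thus differed by a log2 ratio of only 0.0034 (G84E over WT), while the total differed by 0.13. The median peak held 6.34 tags with G84E and 6.46 with WT, as the normalized tag count (tags in the peak per 10000000 tags of the library). The peak caller requires a peak to exceed its surrounding 10000 bp 4-fold. This step removed 83546 of 275378 candidate peaks in the G84E library (30.3%) and 63637 of 254554 in the WT library (25%). The peaks that passed also stood out less from their surroundings with G84E: the authors' fold over the local background had a median of 6.29 with G84E and 6.83 with WT. At shared peaks this fold was 7.22 with G84E and 8.03 with WT, and at peaks found with 1 form alone 5.53 with G84E and 5.86 with WT.

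The forms had a little over 50% of their peaks in common, in nearly equal measure from either side. With G84E, 105062 peaks overlapped a WT peak (54.8%, 95% CI 54.6 to 55.0), and 86734 (45.2%) did not. With WT, 105060 peaks overlapped a G84E peak (55.0%, 54.8 to 55.3), and 85819 (45%) did not. The overlaps were nearly all one to one (105058 of 105062 pairs), with centres a median of 38 bp apart (interquartile range 17 to 73 bp). Centres lay within 50 bp of each other in 60.7% of the pairs and over 100 bp apart in 14.7%. Shared binding was therefore found at close to the same position in most pairs.

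Whether a peak was shared followed its strength, and the curves of the forms lay on each other. In the weakest 10% of each list, 24.5% of the G84E peaks (95% CI 23.9 to 25.1) and 26.4% of the WT peaks (25.8 to 27.1) were found with the other form. In the fifth of the 10 groups the shares were 45.5% with G84E and 45.5% with WT. In the strongest group they were 96.6% (96.3 to 96.8) with G84E and 96.7% (96.4 to 96.9) with WT. By the authors' peak score, 93 of the best 100 G84E peaks (95% CI 86.3% to 96.6%) and 95 of the best 100 WT peaks (88.8% to 97.8%) were shared, a lower share than further down the lists. Of longer lists, 984 of the best 1000 G84E peaks and 985 of the best 1000 WT peaks were shared, and of the best 10000 peaks 9847 with G84E and 9845 with WT. Strong peaks were thus mostly called with both forms, and most peaks with 1 form alone were weak. The lower share among the best 100 rests on few peaks, and with WT its interval meets that of the best 1000 (97.5% to 99.1%).

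**Figure D1:**
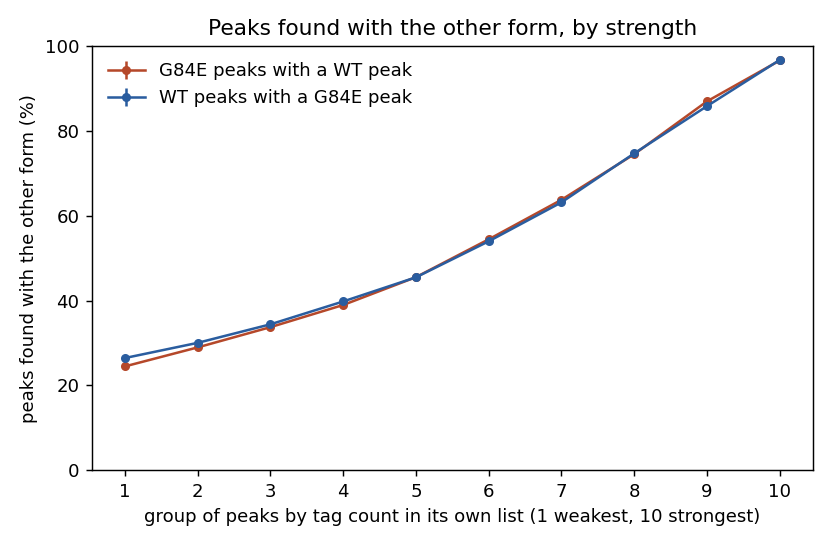
Share of peaks found with the other form (y axis, percent) in 10 equal groups of peaks by normalized tag count in their own list (x axis, 1 weakest). Points are G84E and WT peaks with Wilson 95% intervals, which are smaller than the points; both lines run from about 1 peak in 4 (24.5% with G84E and 26.4% with WT) to 96.6% with G84E and 96.7% with WT.

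Strong peaks found with 1 form alone were few. A normalized tag count of at least 10 was reached by 2460 of the peaks with G84E alone (2.84%) and by 4333 of those with WT alone (5.05%). At least 20 tags were reached by 79 peaks with G84E alone and 163 with WT alone, and at least 50 by 12 with G84E alone and 13 with WT alone. A knockdown HOXB13 peak lay at 9 of the 79 and 11 of the 163, and at 4 of the 12 and 7 of the 13. Over all peaks with 1 form alone, these shares were 0.505% with G84E and 0.692% with WT. The nearest peak of the other form lay a median of 4760 bp from the peaks with G84E alone and 4320 bp from those with WT alone. A peak of the other form within 10000 bp was present for 77.6% with G84E alone and 80.2% with WT alone. These distances were not set against those of random positions, so they do not show that such peaks lay nearer than elsewhere. A missing call does not show that a site was empty, since a list holds only what passed the caller's thresholds, and no repeat library shows how far lists of the same form would overlap.

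At shared peaks the number of tags was the same in the middle of the distribution. As whole tags, G84E had more than WT at 51867 of the 105060 shared WT peaks (49.4%), fewer at 49115 (46.7%) and the same number at 4078 (3.88%), and the median log2 ratio was 0. As normalized tag counts, which divide by all tags of the library, the medians were 7.69 with G84E and 8.19 with WT, and the median log2 ratio (G84E over WT) was −0.13. That value is the log2 ratio of the library totals with its sign reversed (−0.13, WT over G84E). Dividing by the tags in peaks instead adds 0.13 to every log2 ratio and gives a median of −0.0020. Differences of medians between classes of sites do not depend on this choice, since every ratio moves by the same amount, but the direction within a class can.

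Around that median the ratios were spread as follows. In the strongest 10% of shared peaks the log2 ratios had an SD of 0.36 over peaks, against 0.20 from counting alone, and in the sixth group 0.53 against 0.35. In the weakest group the SD was smaller than counting gives (0.26 against 0.46). With 1 library per group, the spread between libraries of the same form is not known. The wider spread is therefore a description, and its cause was not tested. A log2 ratio below −1 was found at 2980 shared peaks (2.84% of all tested) and above 1 at 0.815%. With tags in peaks as the base the split was even, 1623 below −1 and 1652 above 1, so that the share of lower sites among these was 77.7% by library total and 49.6% by tags in peaks. An excess of lower over higher sites was thus present with one base and absent with the other.

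Strong sites had relatively fewer G84E tags than weak ones. In the weakest of 10 equal groups of shared peaks by mean tag count, the median was 4.75 tags with G84E and 4.72 with WT, a median log2 ratio of 0.0029. In the strongest group it was 21.3 tags with G84E and 26.1 with WT, and the median log2 ratio was −0.31 (95% CI −0.31 to −0.29). The strongest group stayed below 0 with tags in peaks as the base (−0.17), where the weakest stood at 0.13. Of the strongest 10% of shared sites, 79.8% were below 0 by library total and 68.9% by tags in peaks. Only peaks called with both forms enter, which bounds the ratio at weak sites. A scale that did not use the compared libraries gave the same order: in 5 equal groups by the tag count of the overlapping control HOXB13 peak, weakest to strongest, the median log2 ratio was −0.096, −0.13, −0.18, −0.26 and −0.34 by library total. By tags in peaks it was 0.034, −0.0033, −0.051, −0.13 and −0.21, so that the weakest of these groups changed direction with the base and the others did not.

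**Figure D2:**
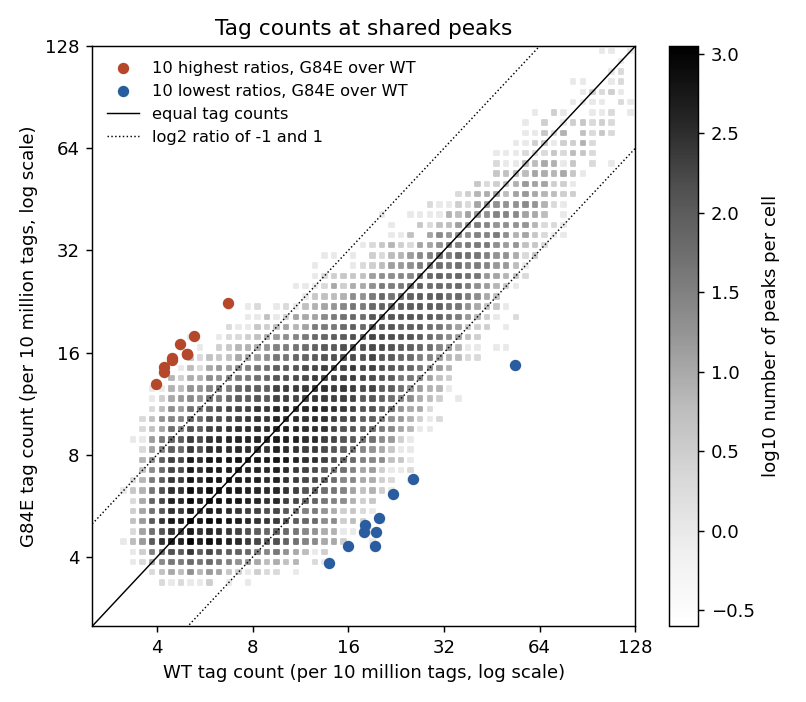
Normalized tag counts at shared peaks (both axes tags per 10000000, log scale; G84E on y, WT on x), shaded by the log10 number of peaks in each cell, without the strongest peaks beyond the axes. The dense centre follows the line of equal counts, while the upper arm of strong sites lies mostly under it by library total; the 10 highest (red) and 10 lowest (blue) ratios lie beyond the dotted lines at log2 ratios of −1 and 1.

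Sites in open chromatin and sites with HDAC3 had lower G84E to WT ratios than other shared sites. Where a control ATAC peak lay (6942 shared WT peaks), the median log2 ratio was −0.32 (95% CI −0.33 to −0.30), against −0.10 where none lay. With tags in peaks as the base these medians were −0.19 and 0.028, so the direction at sites with no ATAC peak turns with the base. The values for control HDAC3 were −0.30 at 9704 sites with a peak and −0.096 at the rest (−0.17 with a peak and 0.035 at the rest by tags in peaks). Open sites were also stronger, with a median mean tag count of 11.5 against 7.84, so the classes were compared within each of the 10 strength groups. Sites with ATAC were lower in 10 of 10 groups, by differences of medians of −0.23 to −0.059, and −0.14 when weighted by the sites with ATAC. In the weakest group the interval of the median with ATAC (−0.065 to 0.0029) met that without (0.0029 to 0.0091). Sites with HDAC3 were lower in 10 of 10 (−0.22 to −0.059, weighted −0.14), and sites with a control HOXB13 peak in 10 of 10 (−0.16 to −0.054, weighted −0.11). These lists overlap each other and are not separate evidence.

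**Figure D3:**
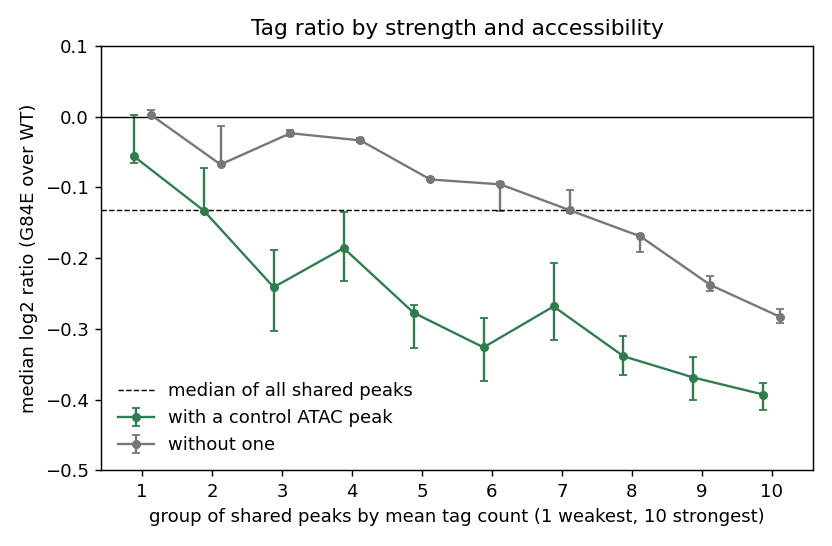
Median log2 ratio of G84E over WT tag counts (y axis) in 10 equal groups of shared peaks by mean tag count (x axis, 1 weakest), for peaks with and without a control ATAC peak, with 95% intervals of the medians over peaks. Peaks with ATAC have the lower median in every group, though the intervals meet in the weakest. The medians reach −0.39 in the strongest group with ATAC against −0.28 without. The dashed line is the median of all shared peaks, −0.13.

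Other lists did not all separate the medians of the shared sites in this way. With HDAC1 the medians were close together: the median log2 ratio was −0.14 at the 1145 shared peaks with a control HDAC1 peak (95% CI −0.18 to −0.13) and −0.13 at the rest. The few extreme sites with HDAC1 did lean lower, 42 below −1 and 2 above 1 by library total (20 and 5 by tags in peaks). The lower share was thus 95.5% with HDAC1 and 77.5% without by library total, and 80% and 49.3% by tags in peaks. At the 1066 shared peaks that also had a knockdown HOXB13 peak, where signal was called with no HOXB13 added back, the ratio was higher, −0.065 (−0.098 to −0.047) against −0.13 elsewhere, by library total. By tags in peaks these medians were 0.065 with a knockdown peak and −0.0021 elsewhere, so the higher ratio at knockdown peaks holds with either base and its direction and closeness to 0 do not. PC-3 HOXB13 peaks, from a different cell line, had a median log2 ratio of −0.21 at 20788 sites against −0.091 at the rest (−0.081 at the sites and 0.040 at the rest by tags in peaks). Within ATAC sites the ratio did not fall steadily with the strength of the ATAC peak, with medians of −0.33, −0.33, −0.33, −0.34 and −0.25 from the weakest to the strongest of 5 groups.

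Peaks found with 1 form alone showed the same division. A control HOXB13 peak lay at 8242 peaks with G84E alone (9.50%, 95% CI 9.31 to 9.70) and at 12075 peaks with WT alone (14.1%, 13.8 to 14.3), a difference of −4.57 percentage points (−4.87 to −4.26). A control ATAC peak lay at 1299 with G84E alone (1.50%) and 2818 with WT alone (3.28%), a ratio of shares of 0.456. For HDAC3 the ratio of shares (G84E alone over WT alone) was 0.502, for HDAC1 0.588, for PC-3 HOXB13 0.679 and for the PC-3 control H3K27ac list 0.757. All 10 other lists were met less often by peaks with G84E alone. The HDAC3 and ATAC lists made after knockdown gave ratios of 0.485 for HDAC3 and 0.458 for ATAC, close to those of the control lists. It also held at equal tag counts: among peaks of 10 to 20 tags, ATAC was present at 3.15% with G84E alone (2.52 to 3.93) and 8.82% with WT alone (8.0 to 9.72), and HDAC3 at 4.37% (3.62 to 5.26) with G84E alone and 10.2% (9.33 to 11.2) with WT alone. In each of the 6 tag classes compared, the ATAC and HDAC3 shares were lower with G84E alone and their intervals did not meet.

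**Figure D4:**
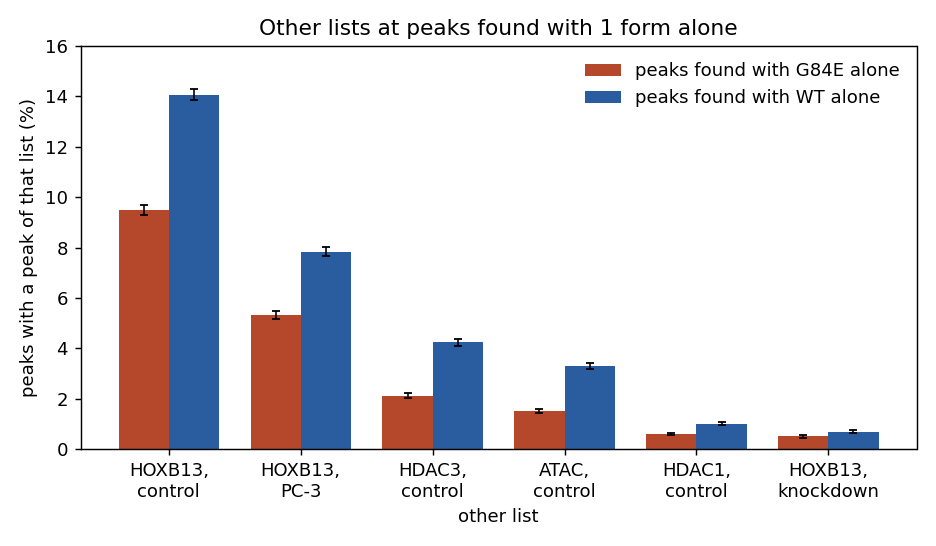
Share of peaks found with 1 form alone (y axis, percent, G84E left and WT right) at which a peak of each other list lay, with Wilson 95% intervals. Every pair has the lower bar for G84E, with the largest gap in points for control HOXB13 (9.50% with G84E alone and 14.1% with WT alone) and low bars for HDAC1 (0.598% with G84E alone and 1.02% with WT alone) and knockdown HOXB13 (0.505% with G84E alone and 0.692% with WT alone).

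Read from the side of the other lists, 22.8% of the 37073 control ATAC peaks met a G84E peak (95% CI 22.3 to 23.2) and 26.9% a WT peak (26.5 to 27.4). G84E alone held 4.86% of the ATAC peaks and WT alone 9.03%. Of the 33964 control HDAC3 peaks, 34.1% met a G84E peak and 39.2% a WT peak, with 5.51% held by G84E alone and 10.6% by WT alone. HDAC1 peaks were met less by either form, 10.1% by G84E and 12.1% by WT. Most open and HDAC3-bound sites had a peak of neither form (68.2% of ATAC and 55.3% of HDAC3 peaks).

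Splitting the peaks by the 3 control lists together placed the G84E excess at sites with none of them. At sites with control HOXB13, HDAC3 and ATAC there were 3794 G84E peaks and 4210 WT peaks, of which 296 with G84E and 711 with WT were alone (ratio of numbers 0.416), and the median log2 ratio at shared ones was −0.35 (95% CI −0.37 to −0.34). At sites with none of the 3 there were 130619 G84E peaks and 124622 WT peaks, of which 76998 with G84E and 70978 with WT were alone (ratio 1.08). The median log2 ratio at the shared ones was −0.037 by library total and 0.094 by tags in peaks. ATAC with neither HOXB13 nor HDAC3 in the control also had fewer peaks with G84E alone, 340, than with WT alone, 709 (0.480). Control HOXB13 with neither of the others gave 7328 alone with G84E and 9920 with WT (0.739). G84E thus had more peaks than WT in the class with no control mark and fewer in each of the other 7 classes.

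The same shift was seen along the chromosomes in regions of 1 Mb, grouped into 10 by their number of control ATAC peaks. In the regions with fewest (median 1 ATAC peak), 9052 peaks were found with G84E alone and 8120 with WT alone, so that G84E held 52.7% of the peaks with 1 form alone (95% CI 52.0 to 53.5). In the regions with most (median 36), 6198 were with G84E alone and 6930 with WT alone, 47.2% (46.4 to 48.1). The median log2 ratio at shared peaks was −0.069 in the first of these groups and −0.18 in the last by library total, and 0.061 in the first and −0.046 in the last by tags in peaks. Regional medians of the ratio ran from −0.30 to 0.059 between the 5th and 95th percentiles of 2473 regions with at least 20 shared peaks, and 86.3% were below 0 by library total and 50.2% by tags in peaks. By chromosome, the number of peaks with G84E alone over WT alone was highest on chromosome 13 (1.09, 2572 with G84E and 2349 with WT) and lowest on chromosomes 19 (0.834, 892 with G84E and 1069 with WT) and 22 (0.835, 520 with G84E and 623 with WT). Chromosome 19 had 633 ATAC peaks per 1000 WT peaks, chromosome 22 had 326 and chromosome 13 had 128. Other chromosomes did not follow this order: X had 145 with a ratio of 0.915, chromosome 16 had 332 with 1.01, and chromosome 18, with the lowest density, had 115 with 1.02.

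**Figure D5:**
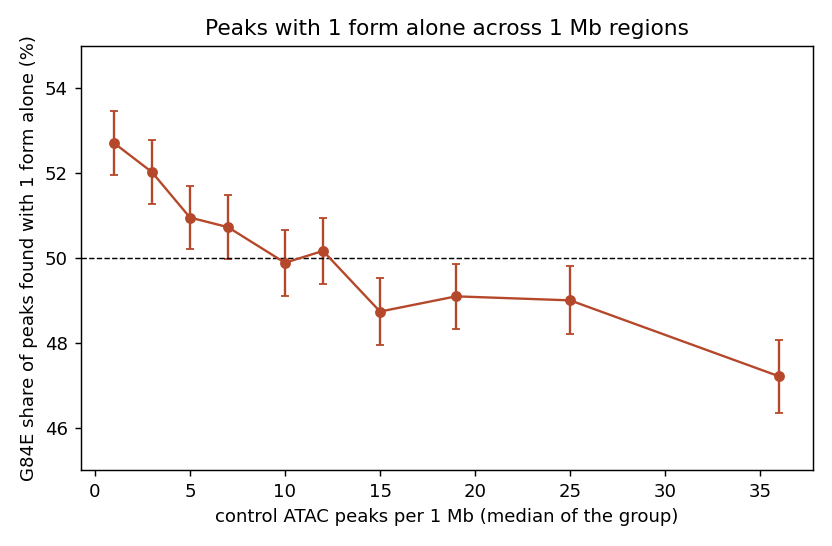
Share held by G84E of the peaks found with 1 form alone (y axis, percent, axis from 45 to 55) in 10 equal groups of 1 Mb regions, placed by their median number of control ATAC peaks (x axis), with Wilson 95% intervals. The share is 52.7% in the most closed regions and 47.2% in the most open; the dashed line marks 50%.

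The sites that differed most followed the same lines. Of the 2980 shared peaks with a log2 ratio below −1, 66.1% had a control HOXB13 peak, 16.2% HDAC3 and 11.9% ATAC. Of those above 1, 34.7% had control HOXB13, 1.99% HDAC3 and 1.64% ATAC. Over all shared peaks these shares were 47.2% for control HOXB13, 9.24% for HDAC3 and 6.61% for ATAC. Sites far higher with G84E were thus nearly without HDAC3 or ATAC peaks, and sites far lower had them more often than shared sites at large. The lower sites had a median mean tag count of 9.89, against 8.26 at the higher ones and 7.99 over all shared peaks.

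Single regions show the scale of these changes; positions are hg19, as in the files, and the intervals are not adjusted for the choice of extremes. Among the lowest ratios, the strongest site was chr5:153558313-153558587, with 14.7 tags with G84E and 53.6 with WT, a log2 ratio of −1.87 (95% CI −2.29 to −1.46). HOXB13 peaks of 21.8 tags in control LNCaP and 28.9 in PC-3 lay there, with no HDAC3 or ATAC peak. The region chr19:19977721-19977995 had 6.79 tags with G84E and 25.6 with WT (log2 ratio −1.91, −2.55 to −1.31), and a control HOXB13 peak of 15.1 tags. The region chr6:134830214-134830488 had 6.11 tags with G84E and 22.1 with WT (−1.85, −2.53 to −1.22), and HOXB13 peaks of 11.1 tags in control LNCaP and 17.0 in PC-3. These sites also had HOXB13 peaks in cells with the control vector. The region chr10:95504752-95505026, with 3.85 tags with G84E and 13.9 with WT (−1.85, −2.73 to −1.05), was the 1 of the 10 lowest with HDAC3 and ATAC peaks in the control.

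The 10 highest ratios ran from 1.67 to 1.85 on the log2 scale. The strongest of them, chr1:175186967-175187241, had 22.4 tags with G84E and 6.70 with WT (log2 ratio 1.74, 95% CI 1.11 to 2.41) and a control HOXB13 peak of 10.5 tags. The region chr2:29596063-29596337 had 17.9 tags with G84E and 5.21 with WT (1.78, 1.07 to 2.55), stood 23.6-fold over its surroundings with G84E and 8.87-fold with WT, and met no peak of any other list. The region chr6:71345725-71345999 had 15.2 tags with G84E and 4.47 with WT (1.76, 0.99 to 2.60) and likewise met none. In all, 6 of the 10 highest met no other list. A control HOXB13 peak lay at 3 of the 10 highest and 7 of the 10 lowest ratios, read beside 47.2% of all shared peaks.

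The highest tag counts of all marked places that were called in nearly every library. The 10 strongest shared peaks all met a knockdown HOXB13 peak and a control HDAC3 peak. At chr1:121485093-121485367 there were 6221 tags with G84E, 6662 with WT, 9132 in control HOXB13 and 15711 in knockdown HOXB13. Of the HOXB13 libraries, the knockdown thus had the highest count there, and control HDAC3 had 16809. The largest ratio among the 10 was at chr2:33141347-33141621, with 4423 tags with G84E and 2388 with WT (log2 ratio 0.89, 95% CI 0.85 to 0.92), and 2647 in the knockdown. Values at these places are given as read and do not describe HOXB13 binding alone. Leaving out every region called in 9 or more of the 12 lists left the median log2 ratio at −0.13 and the share of G84E peaks shared with WT at 54.3%.

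The 10 strongest shared sites with no knockdown peak were a set added after the values were seen. Of these, 8 met a PC-3 control H3K27ac region, against 10.8% of all shared peaks. The 4 with the highest counts stood only 4.55-fold to 7.01-fold over their surroundings, in PC-3 control H3K27ac regions of 2625 to 4536 tags. Like the places above, they may not describe HOXB13 binding alone. A site without a PC-3 H3K27ac region, chr12:54427319-54427593, had 96.2 tags with G84E and 136 with WT (log2 ratio −0.50, 95% CI −0.69 to −0.32). HOXB13 peaks of 85.3 tags in control LNCaP and 58.6 in PC-3 lay there, with no HDAC3, HDAC1 or ATAC peak. The region chr7:143951659-143951933 had 105 tags with G84E and 119 with WT (−0.19, −0.38 to −0.0018, by library total) and a control HOXB13 peak of 32.6 tags. Tags in peaks as the base add 0.13 to this ratio and to both ends of its interval, and the upper end then becomes positive. Of the 10 sites of this set, 5 were lower and 5 higher with G84E by library total, and the 4 with the highest tag counts were among the higher ones.

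The 10 strongest peaks with G84E alone and with WT alone were taken at least 1000 bp from any peak of the other form and off knockdown peaks. With G84E alone, fold over the local background ran from 4.04 to 6.68, next to the required 4. With WT alone it ran from 4.06 to 39.7, the highest at chr10:39121310-39121584 and the next 10.95. That highest site met a control HDAC1 peak (87.4 tags) and no other list. Over all peaks with 1 form alone, the median fold was 5.53 with G84E and 5.86 with WT. A control HOXB13 peak lay at 1 of the 10 with G84E alone and 7 of the 10 with WT alone. Among all peaks with 1 form alone and at least 20 tags, the shares were 26.6% of 79 with G84E and 60.7% of 163 with WT. The 1 with G84E alone was chr10:42391483-42391765, with 997.8 tags and a control HOXB13 peak of 1431.5 tags. It stood 4.11-fold over its surroundings and lay between chr10:42385034-42385308 and chr10:42395902-42396176, which are among the strongest shared peaks. All of these met a PC-3 control H3K27ac region of 9203.9 tags, so this peak, like those places, may not describe HOXB13 binding alone. The WT peak at chr3:152659647-152659921 (31.8 tags, 10.8-fold over its surroundings) met control peaks of HOXB13 (20.4 tags), HDAC3 (21.8 tags) and ATAC (6.09 tags), and a PC-3 H3K27ac region. The WT peak at chr3:175030580-175030854 (32.3 tags, 8.45-fold) met control HOXB13 (23.6 tags) and HDAC3 (29.2 tags). The G84E peak at chr4:77799468-77799750 (29.9 tags, 5.97-fold) met no other list. On chromosome 14, G84E alone had 24.9 tags at chr14:30344156-30344438, with no other list there and the nearest WT peak 9669 bp away. WT alone had 31.0 tags at chr14:30361546-30361820, with the nearest G84E peak 2231 bp away. At that WT peak, control HOXB13 had 40.2 tags, PC-3 HOXB13 59.6 and control ATAC 3.87.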

How the data were processed

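HOXB13 ChIP-seq peak lists of LNCaP cells with HOXB13-G84E or HOXB13-WT were compared, 1 library each, with 10 other lists of the series as annotation. The LNCaP H3K27ac libraries were not analysed here. The submitters' processing notes name Bowtie2, HOMER 4.2 and the build hg19. The authors called each library on its own, per the file headers, with HOMER findPeaks in factor style, with no input library, at a false discovery rate of 0.001, a 4-fold excess over the surrounding 10000 bp and a local Poisson p of 0.0001; the PC-3 H3K27ac lists were called in histone style. The signal used is the deposited normalized tag count, the tags in a peak per 10000000 tags. The deposited findPeaks score ranked peaks, and the deposited ratio of a peak to its surroundings and the deposited fraction of its tags placed as the caller expects described them. Peak widths were 283 bp for G84E and 274 bp for WT.

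Peaks overlapping by at least 1 bp were shared, and the strongest overlapping peak gave the tag count. Ratios were taken at the shared WT peaks. Whole tags were recovered from the library totals (all values under 10 whole within 0.1 tags). Shares have Wilson intervals, their differences Newcombe intervals, medians order-statistic intervals over peaks, and single regions exact (Clopper-Pearson) intervals, all at 95%. With 1 library per group no p-value is given. Named regions, on chromosomes 1 to 22 and X, were the 10 highest and 10 lowest log2 ratios among one-to-one shared peaks whose mean tag count reached 7.99 (the median), the 10 strongest shared, and the 10 strongest with each form alone, at least 1000 bp from a peak of the other form and off knockdown peaks. Members, lists, region rules and comparisons were chosen with earlier results of these data known. Scripts were tested on simulated data. Genes, DNA sequence and the HOXB13 motif were not analysed here. Python 3.11.15, numpy 2.4.6, pandas 2.3.3, scipy 1.17.1 and matplotlib 3.10.9 were used.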

Additional observations from a re-analysis of the deposited data

How the results depend on the processing

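None of the 7 results listed here changed direction under the alternatives it was run with, but other values did: scaling to tags in peaks turned the direction of the median log2 ratio at shared peaks without an ATAC peak (−0.10 by library total, 0.028 by tags in peaks), without HDAC3 (−0.096 and 0.035), with none of the 3 control lists (−0.037 and 0.094) and with a knockdown peak (−0.065 and 0.065), and made the numbers below −1 and above 1 about even (1623 and 1652). The share of peaks found with the other form, 54.8% for G84E and 55.0% for WT, was 46.7% for G84E and 46.9% for WT with centres within 100 bp, 50.9% for G84E and 51.2% for WT with an overlap of 50% of the shorter peak, 62.4% for G84E and 62.7% for WT with the better-scoring 50% of every list, 62.9% for both with equal numbers of peaks, and 54.3% for G84E and 54.6% for WT without regions called in 9 or more lists. The median log2 ratio, −0.132530, was −0.133524 with centres within 100 bp, −0.132989 with 50% overlap, −0.17 with the better-scoring 50%, with equal numbers and as tag density, and −0.0020 when scaled to tags in peaks, an alternative chosen after seeing the data. The fall of that median with strength, −0.31, was −0.24 with the better-scoring 50% and −0.28 with equal numbers. The HDAC3 difference at peaks with 1 form alone (G84E minus WT), −2.11 percentage points, was −0.987 with centres within 100 bp, −1.68 with 50% overlap, −2.42 with the better-scoring 50% and −4.41 with equal numbers. The ATAC difference, −1.79 points, was −1.18, −1.49 and −3.55 with centres within 100 bp, 50% overlap and equal numbers. The difference of medians between sites with and without ATAC, −0.22, was −0.16 with the better-scoring 50%, −0.17 with equal numbers and −0.23 without regions of 9 or more lists. The cause of these movements was not tested. Restricting to chromosomes 1 to 22 and X, leaving out knockdown peaks, a common floor of tag count, one-to-one pairs and anchoring on G84E peaks moved none of the results they could be computed for beyond its interval. No paired analysis was possible because each group held 1 library, and no replicate could be left out. The effect of depth was not tested; the lowest tag counts called were 3.17 with G84E and 2.98 with WT, and the medians of peaks with 1 form alone were 5.43 with G84E and 5.46 with WT.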

Other observations

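In PC-3 cells, whose HOXB13 and H3K27ac lists come from another cell line, the active regions also met the forms unequally. Of 50352 H3K27ac regions in PC-3 control cells, 29.5% met a G84E peak (95% CI 29.1 to 29.9) and 32.0% a WT peak (31.6 to 32.4), and in the PC-3 list made with HOXB13 shRNA 31.5% met a G84E peak and 34.1% a WT peak. G84E alone met 6.75% of the PC-3 control regions and WT alone 9.22%. At shared LNCaP peaks inside PC-3 control H3K27ac regions the median log2 ratio of G84E over WT was −0.19 (−0.20 to −0.18), against −0.12 elsewhere (−0.063 and 0.015 with tags in peaks as the base). The difference was smaller than for LNCaP ATAC or HDAC3 peaks, and no H3K27ac list of LNCaP was used here. In the PC-3 HOXB13 list, 5 equal groups of sites by PC-3 tag count, weakest to strongest, had median log2 ratios of −0.17, −0.19, −0.20, −0.24 and −0.26.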
